A study of Mus musculus with 4 samples.

Results

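Postsynaptic scaffold and adhesion genes were followed through the brain transcriptome of the Ids-ko mouse, the model of Mucopolysaccharidosis type II (Hunter syndrome), in which the lysosomal sulfatase Ids is disrupted. Of 37 genes listed by symbol, 34 were found in the deposited table of 12700 genes, which names genes by Entrez identifier. The other 3, Lrrtm1, Lrrtm2 and Lrrtm3, had no row there and are not analysed here. All C57BL/6 mice were 9 months old, and 4 libraries were made from pooled RNA, 1 each for cerebral cortex of Ids-ko mice (genotype label Ids-/-, CxH), cerebral cortex of wild type mice (CxWT), midbrain/diencephalon/hippocampus of Ids-ko mice (MH) and the same area of wild type mice (MWT). The knock-out is carried by the whole animal, and the areas were dissected as whole tissue. With 1 library per condition there is no replicate check, no p-value is given, and each ± is the standard error of counting alone.

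At an excitatory synapse the receiving side carries a dense protein mesh under the membrane. MAGUK proteins (the Dlg genes) hold glutamate receptors, SAPAP proteins (the Dlgap genes) bind the MAGUKs, and Shank and Homer proteins build the deeper layers and reach the actin of the dendritic spine. Neuroligins and LRRTM proteins cross the cleft to meet neurexins on the sending side, while auxiliary subunits travel with AMPA receptors and set their traffic and gating. Many of these proteins are abundant in the spiny neurons of the forebrain.

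The libraries held 16380080 to 23475080 reads on genes, and a count of 3 reads corresponded to 0.078 to 0.104 reads per 1000000 aligned reads (RPM). Ids itself had 135 RPM in CxH and 354 in CxWT, a log2 ratio of -1.39 ± 0.024. In M the order was the opposite, with 368 RPM in the library labelled MH and 155 in the one labelled MWT, a log2 ratio of 1.24 ± 0.025. Marker genes also went against the area labels. The 15 genes of cortical projection neurons summed to 2251 RPM in CxH and 2101 in MH, against 446 in CxWT and 391 in MWT. The 17 measured genes of midbrain and diencephalic neurons summed to 648 RPM in CxWT and 563 in MWT, against 49.97 in CxH and 63.6 in MH, where 6 and 3 of them had at most 3 reads. The dopamine transporter gene Slc6a3, for example, had 56.4 RPM in CxWT and 49.8 in MWT, against 0.416 in CxH and 0.509 in MH. Libraries are therefore named by their labels throughout, and every direction below is that of the labels.

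The postsynaptic genes took 1.27% of the reads on genes in CxH and 1.07% in MH, against 0.562% in CxWT and 0.470% in MWT. Their summed level was 7739 RPM in CxH against 3387 in CxWT, and 6318 in MH against 2659 in MWT. A gene was called up-regulated or down-regulated when a likelihood ratio test on the reads of a pair of libraries passed at a p-value of 0.05 and the log2 ratio reached 0.7 in either direction, so a call compares those libraries and not the conditions. In CxH vs. CxWT, 17 of the 34 genes were called up-regulated, where 9.46% of all genes were, and 0 down-regulated, where 11.5% were. In MH vs. MWT, 20 were called up-regulated (12.3% of all genes) and 0 down-regulated (12.7%). The 34 genes had median log2 ratios of 0.73 for Cx and 1.01 for M, whereas the median of all genes was -0.09 and -0.07.

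The same 17 genes were up-regulated in both areas, as were 791 of all 12700 genes. Of the 34, 0 were down-regulated in both, against 820 of all genes. The 17 were Dlg4, all the Dlgap genes, Shank1, Shank2, Homer1, Cacng3, Cnih2, Nrgn, Iqsec2, Kalrn, Sipa1l1, Baiap2, Ddn and Ppp1r9b. Shank3, Homer3 and Cacng8 passed in M and not in Cx, a difference in calls that was not tested. The remaining 14 genes were called in neither area, as were 8552 of all 12700 genes. A correction of the ratios for GC content and length, a curve quadratic in GC content and log2 length fitted over the genes that had 100 reads or more in all libraries, left 13 of the 17 genes called in both areas, without Dlg4, Dlgap4, Cnih2 and Ppp1r9b, and added Dlg2. Both CxH and MH lay above both CxWT and MWT for 27 of the 34 genes, an arrangement that 24.3% of all genes showed. Both lay below for Gphn and Shisa9, as for 36.9% of all genes, and for Nlgn1, Nlgn3, Nrxn3, Cacng2 and Iqsec1 the levels overlapped. The comparisons in Cx and M use different libraries. By the labels the areas come from the same groups of mice, but Ids levels did not follow the genotype labels, as given above.

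Marker sums of several cell types also differed between the libraries. Of the 15 cortical projection neuron genes, 13 were up-regulated and 0 down-regulated in each area, with median log2 ratios of 2.92 and 3.34. Striatal neuron genes summed to 967 RPM in CxH against 359 in CxWT, and to 817 in MH against 329 in MWT. For hippocampal neuron genes these sums were 132 against 108 and 136 against 76.2. In contrast, 10 genes found in neurons in general summed to between 3987 RPM (CxWT) and 4074 RPM (CxH) in the libraries, and 1 of them, Rbfox3, was up-regulated in each area. Oligodendrocyte genes were lower in CxH (4826 RPM) and MH (5015) than in CxWT (9155) and MWT (7282). Microglial genes had another order, with 522 RPM in CxH and 414 in MWT above 321 in MH and 270.4 in CxWT. Astrocyte genes summed to 2996 RPM in CxH against 2043 in CxWT, and to 2491 in MH against 2610 in MWT. The part of these differences in the postsynaptic ratios was not tested, and in whole tissue fewer cells of a type cannot be told apart from less RNA per cell. Of the 17 midbrain and diencephalic neuron genes, 16 were down-regulated and 0 up-regulated in each area, with median log2 ratios of -4.30 and -3.88. The ratios labelled Ids-ko over wt thus compare libraries that also differ in area markers, and dissected area cannot be told apart from genotype.

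**Figure D1:**
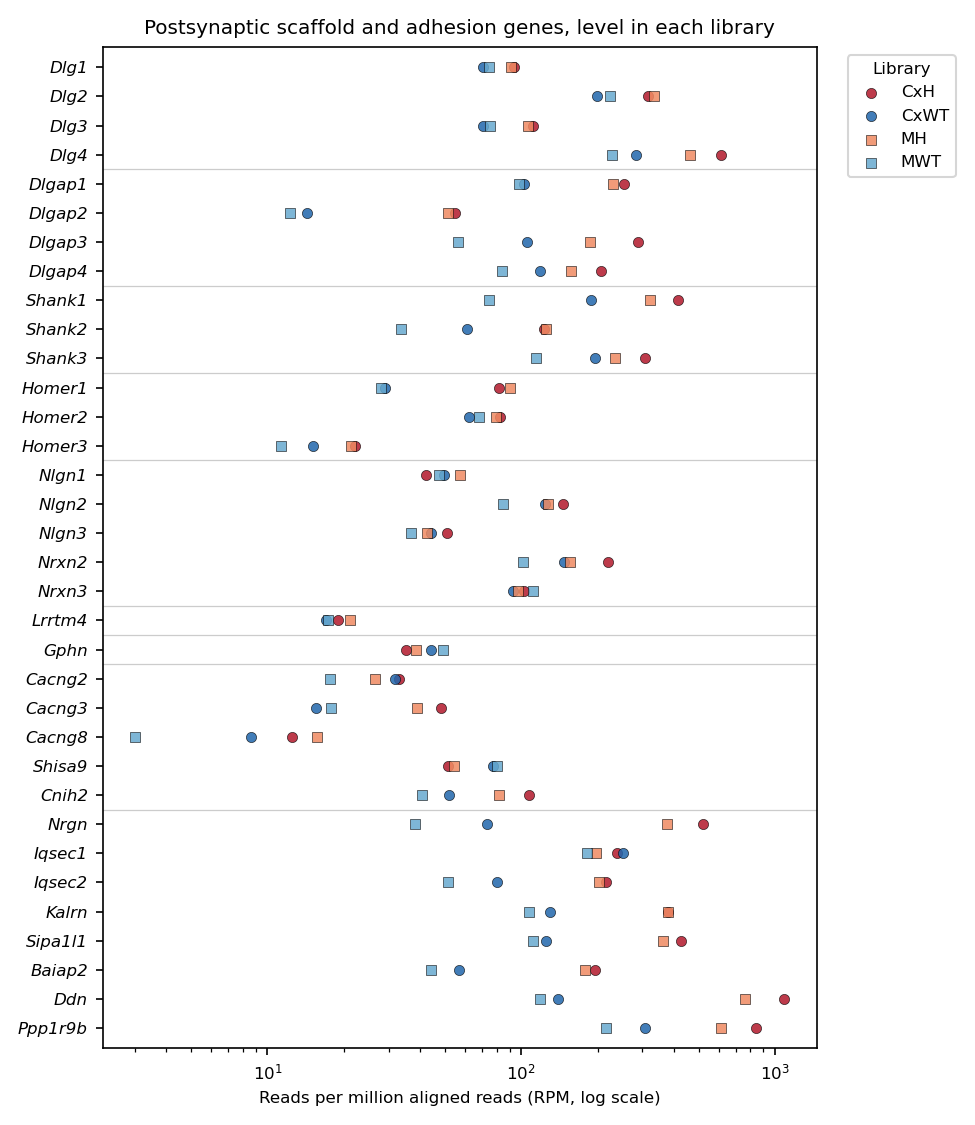
Level of each of the 34 genes (rows, grouped by role) in the 4 libraries, in RPM on a log axis. Red and orange symbols are CxH and MH, dark and light blue symbols are CxWT and MWT. Red and orange lie to the right of both blues in 27 rows, and the widest gaps are those of Nrgn and Ddn near the bottom.

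Among the MAGUK scaffolds, Dlg4, the main scaffold of the mature excitatory synapse, was the only gene called in Cx or M. It lies on chromosome 11 from 69830587 to 69859034 (mm9, plus strand). It had 283 RPM in CxWT and 613 in CxH, then 229 in MWT and 463 in MH. Its log2 ratios were 1.11 ± 0.018 for Cx and 1.02 ± 0.021 for M, or 2.16-fold and 2.03-fold. Dlg1, Dlg2 and Dlg3, which also carry glutamate receptors, were not called, with log2 ratios of 0.28 to 0.66. Dlg2 at 0.66 ± 0.022 and Dlg3 at 0.66 ± 0.037 lay just under the threshold in Cx, and both were called there with TMM factors or DESeq2 size factors in place of the aligned reads. With the correction for GC content and length Dlg4 had 0.86 in Cx and 0.57 in M, where it was no longer called, and Dlg2 was called in both areas with 0.91 and 0.81. Per length, Dlg4 made up 63.4% of the MAGUK level (RPKM, the RPM divided by the kilobases of the longest protein-coding transcript) in CxH and 56.2% in MH, against 54.9% in CxWT and 47.3% in MWT. These shares do not depend on a library's scaling, but they were not corrected for GC content, and the corrected ratio of Dlg2 was above that of Dlg4 in both areas.

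The SAPAP scaffolds, which join the MAGUKs to the Shank proteins, were all up-regulated in both areas. Dlgap2, the least abundant of them per length, had 54.7 RPM in CxH and 51.5 in MH, against 14.3 in CxWT and 12.2 in MWT. Its log2 ratios were 1.94 ± 0.073 in Cx and 2.07 ± 0.083 in M. Dlgap2 overlaps another protein-coding gene model, on the opposite strand, so its level is uncertain where the models overlap. Dlgap3, known for its role in the striatum, had 288 RPM in CxH against 105 in CxWT, and 187 in MH against 56.6 in MWT, with log2 ratios of 1.46 ± 0.028 and 1.73 ± 0.040. For both genes CxH and MH were the high libraries. Dlgap1 had 102 RPM in CxWT and 254 in CxH, then 98.4 in MWT and 229.7 in MH, with log2 ratios of 1.32 ± 0.029 and 1.22 ± 0.031. Dlgap4 had 207 RPM in CxH and 158 in MH, against 119 in CxWT and 84.3 in MWT. Its log2 ratios of 0.80 and 0.90 were the lowest of any postsynaptic gene called in Cx and in M, and with the correction for GC content and length it was at 0.50 and 0.24 and no longer called. The correction took Dlgap3 to 1.05 and 0.73. Among uncorrected ratios, just below the threshold came Shank3 at 0.67 in Cx and Nrxn2 at 0.61 in M. Dlgap4 made up 36.7% of the SAPAP level per length in CxWT and 36.8% in MWT, against 26.9% in CxH and 27.0% in MH.

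The Shank genes code for the large scaffolds that link SAPAP proteins to Homer and to actin. Shank1 had 416 RPM in CxH and 323 in MH, against 189 in CxWT and 74.7 in MWT. Shank2 had 122 RPM in CxH against 61.4 in CxWT, and 125 in MH against 33.6 in MWT. Shank3 had 194 RPM in CxWT and 309 in CxH, then 114 in MWT and 235 in MH. For all 3 genes the lowest library was MWT and the next lowest CxWT. The log2 ratios in Cx were 1.14 ± 0.021 for Shank1, 0.996 ± 0.038 for Shank2 and 0.67 ± 0.022 for Shank3. In M they were 2.11 ± 0.034, 1.90 ± 0.051 and 1.04 ± 0.029, each larger than in Cx by more than its counting error. Shank3 was also called in Cx with TMM factors or DESeq2 size factors. After the correction for GC content and length its ratios were 0.28 in Cx and 0.003 in M, so that M was no longer the larger. Shank1 then had 0.74 in Cx and 1.02 in M, and Shank2 0.79 and 1.37, so that their differences between the areas were smaller. The composition of the family differed too, since Shank3 was 53.3% of the Shank level per length in MWT and 45.5% in CxWT, but 36.1% in MH and 38.0% in CxH. Shank1 was 33.8% in MWT and 42.8% in CxWT, against 48.1% in MH and 49.6% in CxH.

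Homer1, whose product joins Shank to metabotropic glutamate receptors, was the only Homer gene called in both areas. It had 81.9 RPM in CxH and 90.4 in MH, against 29.1 in CxWT and 27.9 in MWT, with log2 ratios of 1.49 ± 0.053 and 1.70 ± 0.057. Reads per gene do not separate the long scaffold form from the short form that neuronal activity induces. Homer1 made up 47.3% of the Homer level per length in CxH and 50.7% in MH, against 30.8% in CxWT and 31.7% in MWT. Homer3 had 22.1 RPM in CxH against 15.1 in CxWT, and 21.3 in MH against 11.3 in MWT, and was up-regulated in M (0.92 ± 0.095) but below the threshold in Cx (0.54 ± 0.081). With the correction it was called in neither, at 0.22 in Cx and 0.38 in M. It overlaps the gene Ddx49 on the opposite strand, and whether the counting used strand is not given in the sources used here. Homer2 was not called, with 0.41 and 0.22.

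**Figure D2:**
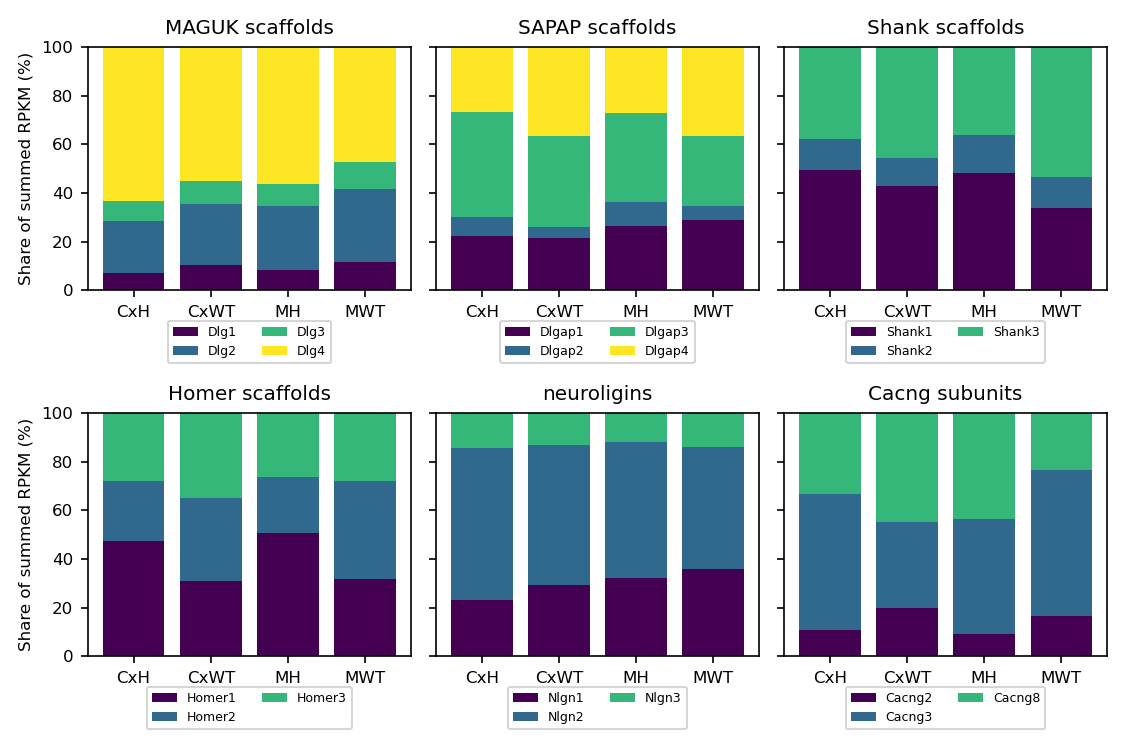
Composition of 6 gene families in each library, as the share of the summed RPKM of the family (percent, stacked from 0 to 100). Dlg4 (MAGUK), Homer1 and Shank1 take larger shares in CxH and MH than in CxWT and MWT, without correction for GC content, while the shares of Nlgn1, Nlgn2 and Nlgn3 do not separate the libraries in that way.

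None of the neuroligins, which bridge the cleft, or of the neurexins, their partners on the sending side, was called in Cx or in M. Nlgn2, found at inhibitory synapses, had 125 RPM in CxWT and 147 in CxH, then 84.8 in MWT and 128 in MH, and log2 ratios of 0.23 ± 0.029 and 0.59 ± 0.036. The correction for GC content and length turned these to -0.11 and -0.23. Nlgn1, found at excitatory synapses, had 42.1 RPM in CxH and 57.2 in MH, against 49.5 in CxWT and 47.2 in MWT, so that MH was high and CxH low. Its ratios had opposite signs, -0.23 ± 0.050 in Cx and 0.28 ± 0.050 in M, and the former turned to 0.14 with the correction. Nlgn3 gave 0.21 in both areas and overlaps Med12 on the same strand. Nrxn2, which overlaps Slc22a12, gave 0.57 and 0.61, and with the correction 0.19 and -0.40, while Nrxn3 gave 0.14 and -0.18. Lrrtm4, the LRRTM protein left in the table, had 17.1 to 21.2 RPM in the 4 libraries and log2 ratios of 0.15 ± 0.081 and 0.29 ± 0.082. With the correction these became 0.66 and 0.73, and Lrrtm4 was then called up-regulated in M. Together the neuroligins and neurexins summed to 562 RPM in CxH against 459 in CxWT, and 480.5 in MH against 381 in MWT.

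Gphn, which codes for gephyrin, the scaffold that anchors glycine and GABA-A receptors at inhibitory synapses, was not called. It had 44.1 RPM in CxWT and 35.1 in CxH, then 49.2 in MWT and 38.4 in MH, with log2 ratios of -0.33 ± 0.054 and -0.36 ± 0.054. Unlike most of the scaffold genes of excitatory synapses, it was lower in both libraries labelled Ids-ko than in both labelled wt. This order was shown by 36.9% of all genes. Its ratios were -0.16 and -0.11 after the correction for GC content and length.

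The auxiliary subunits of AMPA receptors were mixed. Cacng3 had 48.2 RPM in CxH and 38.9 in MH, against 15.6 in CxWT and 17.8 in MWT, and was up-regulated with 1.63 ± 0.071 and 1.13 ± 0.074. Cnih2, a cornichon protein that slows the closing of the receptor, had 107 RPM in CxH against 51.8 in CxWT, and 81.7 in MH against 40.8 in MWT, with 1.05 ± 0.041 and 1.003 ± 0.049. Both genes were high in CxH and MH. With the correction for GC content and length Cnih2 was at 0.68 and 0.66, below the threshold in both areas. Cacng8 had 8.63 RPM in CxWT and 12.4 in CxH, then 3.01 in MWT and 15.6 in MH. The level in MWT rested on 87 reads, the lowest count of any of the 34 genes. Its log2 ratio was 2.38 ± 0.166 in M and 0.53 ± 0.107 in Cx, a difference of -1.85 ± 0.198 (Cx minus M) that covers counting error only. The correction took these ratios to 2.40 in M and 0.18 in Cx. Cacng2, the stargazin gene, was not called in either area, with 0.05 ± 0.060 and 0.60 ± 0.079. Shisa9 also was not called, with 51.6 RPM in CxH and 54.1 in MH, against 77.6 in CxWT and 80.0 in MWT, and its ratios of -0.59 ± 0.043 and -0.56 ± 0.044 were the lowest of the 34 genes in both areas. With the same correction Shisa9 was called down-regulated in both, at -0.88 and -0.74.

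The genes of spine signalling and actin held the highest ratios, and 7 of 8 were up-regulated in each area, or 6 in M after the correction for GC content and length. Nrgn codes for neurogranin, a postsynaptic protein that binds calmodulin and is abundant in forebrain neurons, and the gene lies on chromosome 9 from 37352078 to 37360330 (mm9, minus strand). It had 521 RPM in CxH (95% exact Clopper-Pearson interval 514 to 528), 73.4 in CxWT (70.5 to 76.4), 374 in MH (368 to 380.2) and 38.3 in MWT (36.1 to 40.6), and these intervals cover counting error only. The log2 ratios were 2.83 ± 0.031 for Cx and 3.29 ± 0.045 for M, which is 7.09-fold and 9.76-fold. Ddn codes for dendrin, a protein of dendrites and spines whose mRNA is carried into dendrites, from a gene on chromosome 15 between 98634213 and 98638356 (mm9, minus strand). It had 1089 RPM in CxH against 139 in CxWT, and 760.5 in MH against 119 in MWT, with log2 ratios of 2.97 ± 0.022 and 2.68 ± 0.026, or 7.83-fold in Cx and 6.42-fold in M. Its model overlaps 1 non-coding gene model. Within this group Nrgn was 36.8% of the level per length in CxH and 35.1% in MH, against 22.0% in CxWT and 16.3% in MWT.

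Baiap2, which bends membrane and recruits actin regulators in spines, had 56.7 RPM in CxWT and 195 in CxH, then 44.2 in MWT and 178 in MH. Sipa1l1, a regulator of Rap GTPases and spine shape, had 425 RPM in CxH and 361 in MH, against 125 in CxWT and 111 in MWT. Kalrn, the gene of kalirin, a protein that enlarges spines, had 377 RPM in CxH against 129.8 in CxWT, and 380.4 in MH against 108 in MWT. In each of these genes CxH and MH were close to each other and well above the other pair, with log2 ratios of 1.54 to 2.01. Ppp1r9b, the gene of spinophilin, which brings a protein phosphatase to the spine, had 309 RPM in CxWT and 839 in CxH, then 216 in MWT and 612 in MH, with 1.44 ± 0.016 and 1.50 ± 0.021. With the correction it had 1.07 in Cx and 0.62 in M, where it was no longer called. Iqsec2, an exchange factor for Arf GTPases, had 215 RPM in CxH and 202 in MH, against 80.6 in CxWT and 51.5 in MWT, with 1.42 ± 0.032 and 1.97 ± 0.041, and 1.10 and 1.22 with the correction. Its relative Iqsec1 was not called, with -0.08 ± 0.022 and 0.12 ± 0.026, and it was the most even of the group, with 252 RPM in CxWT, 238 in CxH, 198 in MH and 181 in MWT.

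**Figure D3:**
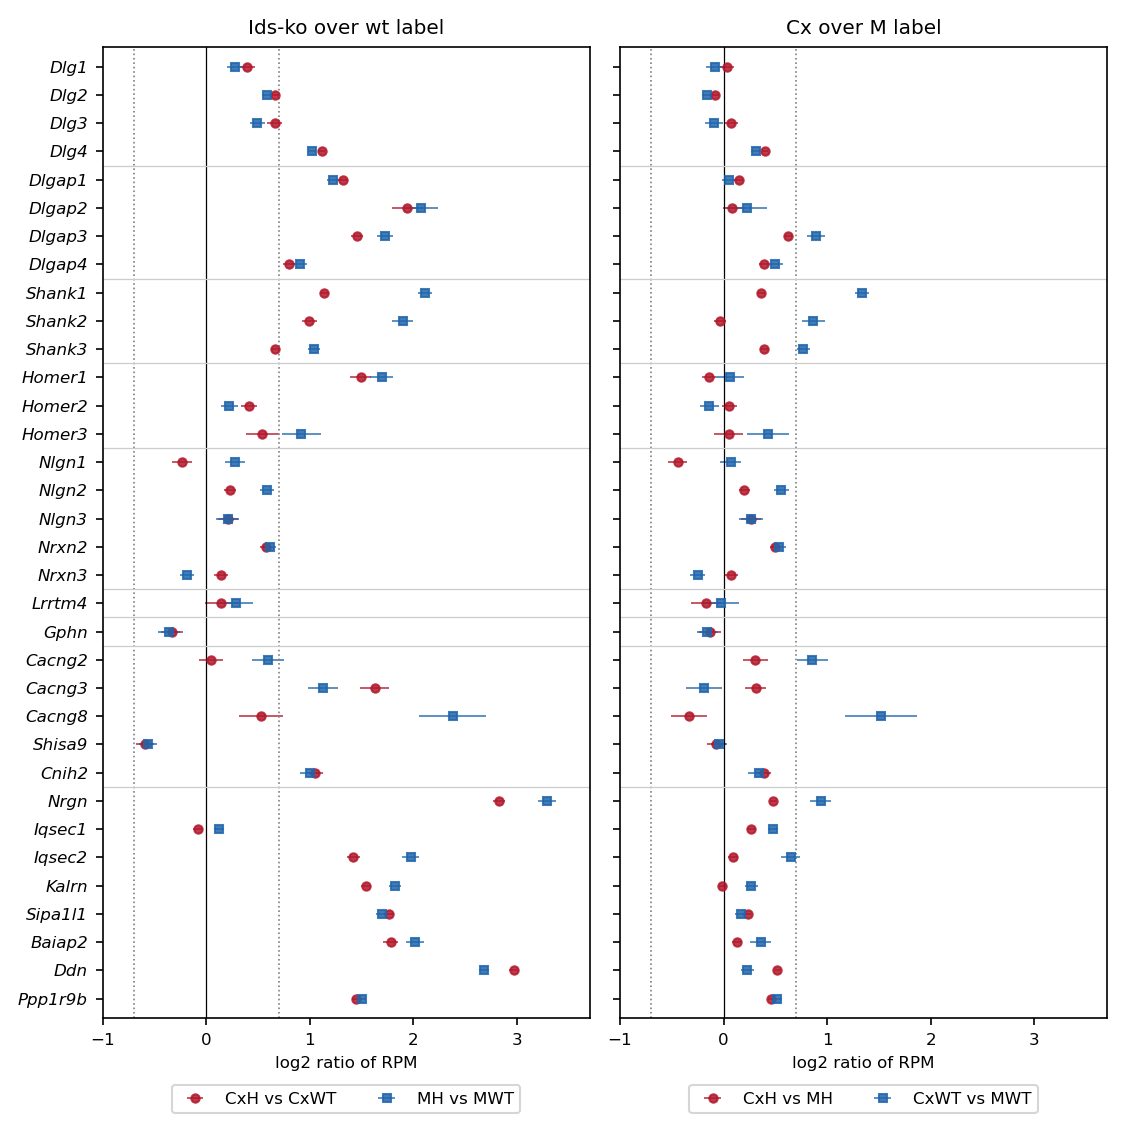
Log2 ratios of RPM for each gene (rows), on the left for Ids-ko over wt labels in Cx (red) and M (blue) and on the right for Cx over M labels in Ids-ko (red) and wt (blue). Bars span 1.96 counting standard errors on each side and dotted lines mark the threshold of 0.7. On the left 17 red and 20 blue points pass the upper line, and on the right 0 red and 7 blue points do.

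The sequences just upstream of the transcription start are shown for Nrgn, Baiap2 and Dlgap3, up-regulated in both areas, and for Gphn, which was not. They are the 250 bases before the start from RefSeq promoter windows (build GRCm38.p6, unlike the counts), in transcript orientation, with the word GGGCGG or its reverse complement CCGCCC, the core of the GC box, in capitals. Nrgn at chr9:37552746-37552995 (minus strand) is 58.4% GC, Baiap2 at chr11:119942842-119943091 (plus) 72.8%, Dlgap3 at chr4:127172630-127172879 (plus) 46.8% and Gphn at chr12:78226405-78226654 (plus) 77.2%.
Nrgn: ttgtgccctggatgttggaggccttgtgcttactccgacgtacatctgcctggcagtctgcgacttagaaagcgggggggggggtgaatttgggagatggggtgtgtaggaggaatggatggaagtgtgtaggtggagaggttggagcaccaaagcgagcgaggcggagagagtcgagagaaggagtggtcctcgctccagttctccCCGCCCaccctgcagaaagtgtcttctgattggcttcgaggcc
Baiap2: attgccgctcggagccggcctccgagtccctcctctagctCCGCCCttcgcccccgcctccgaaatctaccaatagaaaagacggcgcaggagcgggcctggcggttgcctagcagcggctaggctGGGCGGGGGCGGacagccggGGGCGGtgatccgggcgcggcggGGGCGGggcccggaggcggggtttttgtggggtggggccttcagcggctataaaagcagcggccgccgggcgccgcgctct
Dlgap3: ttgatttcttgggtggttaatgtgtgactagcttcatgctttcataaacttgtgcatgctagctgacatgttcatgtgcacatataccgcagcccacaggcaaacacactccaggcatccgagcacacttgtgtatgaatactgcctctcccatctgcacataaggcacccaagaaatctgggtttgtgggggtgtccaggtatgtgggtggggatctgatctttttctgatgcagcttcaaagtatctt
Gphn: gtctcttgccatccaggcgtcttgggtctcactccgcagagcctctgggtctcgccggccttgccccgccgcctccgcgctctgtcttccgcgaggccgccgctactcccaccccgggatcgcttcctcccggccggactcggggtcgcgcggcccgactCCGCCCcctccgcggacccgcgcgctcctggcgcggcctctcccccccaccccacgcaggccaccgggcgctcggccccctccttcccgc
The GC box word occurs 5 times upstream of Baiap2, 1 time each upstream of Nrgn and Gphn, and 0 times upstream of Dlgap3. RefSeq windows were matched for 29 of the 37 symbols, 47 windows in all, and 17 of these (36.2%) held the word on either strand, against 32.7% of 32851 windows of all genes. The share was 36.8% (7 of 19 windows) for genes up-regulated in both areas and 34.8% (8 of 23) for genes called in neither. The TATA word TATAAA was in 6 of the 47 windows (12.8%, all genes 12.4%), the E-box CACGTG in 3 (6.38%, all genes 6.02%) and the cAMP response word TGACGTCA in 0 (all genes 1.55%). None of the 4 words contains another. These matches describe letters in the windows, and the shares lay close to those of all genes. The GC content of the windows was not tested against the ratios. It is not that of the transcripts, which were 63.9% GC for Dlgap3 and 45.8% for Gphn.

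The comparison of the areas within a genotype label gave fewer calls. In CxH vs. MH, 0 of the 34 genes were called up-regulated (2.43% of all genes) and 0 down-regulated (1.06%), with a median log2 ratio of 0.14 and a range from -0.44 for Nlgn1 to 0.62 for Dlgap3. In CxWT vs. MWT, 7 were up-regulated (5.43% of all genes) and 0 down-regulated (2.11%), with a median of 0.29. The 7 were Dlgap3 (0.89 ± 0.043), Shank1 (1.34 ± 0.036), Shank2 (0.87 ± 0.056), Shank3 (0.77 ± 0.031), Cacng2 (0.86 ± 0.078), Cacng8 (1.52 ± 0.176) and Nrgn (0.94 ± 0.052). All 3 Shank genes were thus higher in the library labelled CxWT than in MWT. After the correction for GC content and length the median of the 34 genes in CxWT vs. MWT was -0.01 and Dlgap3 and the Shank genes were no longer called, Shank3 moving to -0.05. It left 3 up-regulated there (1.94% of all genes) and 0 down-regulated (1.24%), and 0 and 0 in CxH vs. MH (1.49% and 0.859%). Cortical projection neuron genes had a median of 0.12 in CxH vs. MH, with 0 called up-regulated. Their median was 0.23 in CxWT vs. MWT, with 1 called.

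The pairs that differ in both labels were also set side by side. In CxH vs. MWT, 2 libraries with similar Ids levels (135 and 155 RPM), 23 of the 34 genes were up-regulated (15.6% of all genes) and 0 down-regulated (15.1%), with a median log2 ratio of 1.38. In MH vs. CxWT, where Ids had 368 and 354 RPM, 17 were up-regulated (6.41% of all genes) and 0 down-regulated (8.89%), with a median of 0.68. Nrgn had a log2 ratio of 3.76 ± 0.045 in the first pair and 2.35 ± 0.032 in the second, and Ddn 3.20 ± 0.026 and 2.45 ± 0.023. In both pairs Gphn was lower in the library labelled Ids-ko, with -0.49 and -0.20. The correction for GC content and length brought these to -0.12 and -0.14. Dlg1 and Dlg3 were not called in either pair. In CxH vs. MWT the adhesion genes Nlgn2 (0.79) and Nrxn2 (1.11) were among those called, but the correction turned them to -0.19 and -0.08. After the correction for GC content and length 19 genes were called up-regulated (8.26% of all genes) and 1 down-regulated (7.18%) in CxH vs. MWT, with a median of 0.84. For MH over CxWT it left 14 up-regulated (6.01% of all genes) and 0 down-regulated (8.6%), with a median of 0.58. These pairs share their libraries with the comparisons above and are no separate evidence.

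The transcripts of these genes were rich in GC. Their median GC content was 55.3% (36.9% for Homer1 to 63.9% for Dlgap3), against 50.7% for all genes, and 25 of 34 lay above that median. Over the 10698 genes that had 100 reads or more in all libraries, log2 ratios were higher at higher GC content, with Spearman coefficients of 0.46 in CxH vs. CxWT, 0.49 in MH vs. MWT, 0.58 in CxH vs. MH and 0.63 for CxWT vs. MWT. The coefficient was 0.69 in CxH vs. MWT and 0.16 for MH over CxWT. Over the 34 genes the coefficients were 0.31, 0.45, 0.68 and 0.73 in the first 4 of these comparisons, as a description over genes that share libraries. After the correction the median of the 34 was 0.67 in Cx and 0.65 in M, with 16 genes called up-regulated and 1 down-regulated in each. Over all 12221 genes with GC content and length, the up-regulated share was then 7.86% and the down-regulated share 9.46% for Cx. For M these shares were 8.62% and 8.97%. In Cx the correction took Dlgap4 and Cnih2 below the threshold, and in M it took Dlg4, Dlgap4, Shank3, Homer3, Cnih2 and Ppp1r9b. It brought Dlg2 above the threshold in Cx (0.91) and in M (0.81), and Lrrtm4 in M (0.73). With the correction Nrgn had 2.52 and 3.08, and Ddn 2.65 in Cx and 2.05 in M, where it was 2.68 without it. Homer1, with the lowest GC content of the 34, moved up to 2.06 and 2.12.

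**Figure D4:**
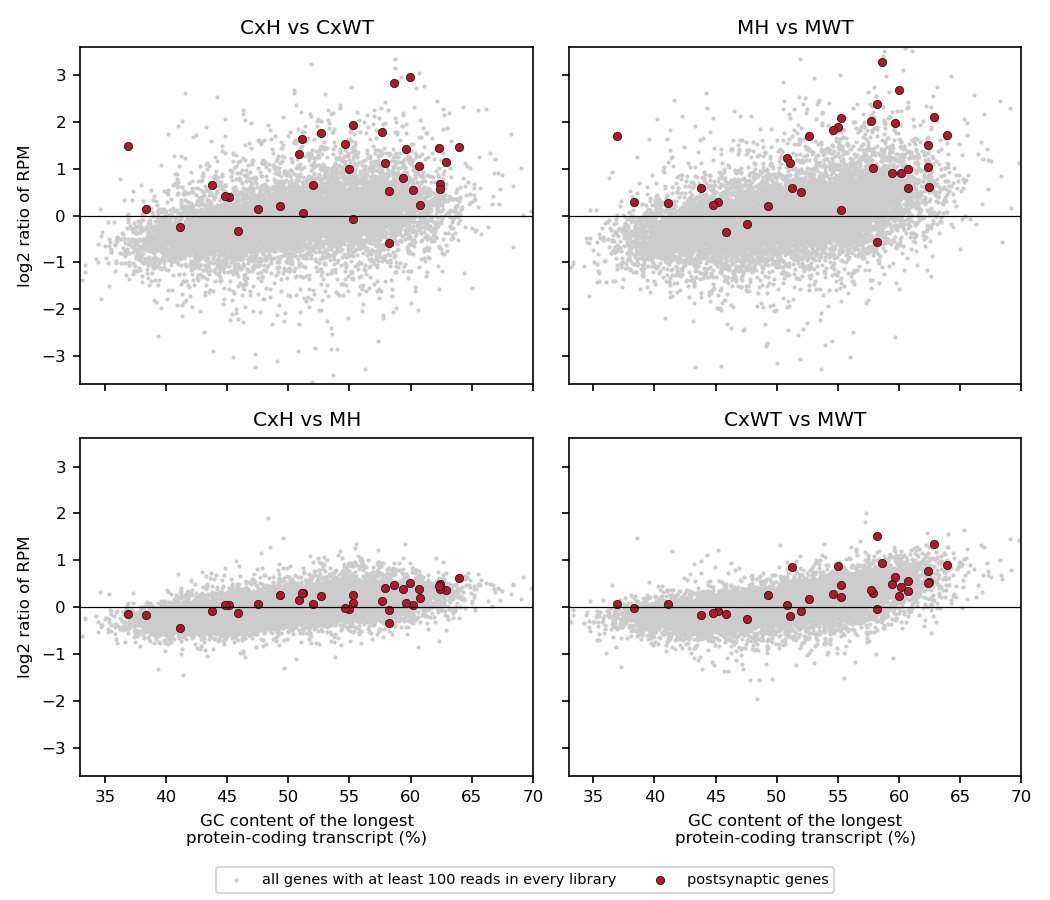
Log2 ratio of RPM against GC content of the longest protein-coding transcript (percent) in 4 comparisons, for the 34 postsynaptic genes (red) and for all genes that had 100 reads or more in all libraries (grey, those beyond the axis limits not drawn). The grey cloud rises to the right in each panel, and 30 and 31 of the 34 red points lie above 0 in the upper left and upper right panels.

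Other genes of the postsynaptic side, 86 listed by symbol and 81 found in the table, were less one-sided. In Cx, 18 of them were up-regulated (9.46% of all genes) and 5 down-regulated (11.5%), with a median log2 ratio of 0.15. In M, 31 were up-regulated (12.3% of all genes) and 4 down-regulated (12.7%), with a median of 0.37. Those with scaffold and signalling roles gave 12 up-regulated and 1 down-regulated of 33 in Cx, and 16 and 0 in M. Adhesion proteins and synapse organisers gave 4 and 3 of 40 in Cx, an up-regulated share near that of all genes, and 12 and 3 in M. Receptor auxiliary subunits gave 2 and 1 of 8 in Cx, and 3 and 1 in M. The highest in Cx were Synpo, the gene of the spine apparatus protein synaptopodin (215 RPM in CxH and 45.4 in CxWT, log2 ratio 2.24 ± 0.040), Lzts1 (1.96 ± 0.111) and Agap2 (1.87 ± 0.019). In M they were Nptxr, a neuronal pentraxin receptor (11.0 RPM in MH and 0.967 in MWT, 3.50 ± 0.282), Synpo (2.55 ± 0.050) and Lzts1 (2.33 ± 0.142). The lowest were the same 3 genes in both areas. Cbln1, a secreted organiser that joins neurexins to a glutamate delta receptor, had 5.43 RPM in CxH against 29.8 in CxWT, and 5.86 in MH against 30.2 in MWT, with -2.46 ± 0.110 and -2.37 ± 0.109. Its relative Cbln4 had -1.27 ± 0.087 and -1.29 ± 0.088, and Cacng5, a relative of the AMPA receptor subunits above, had -1.36 ± 0.081 and -1.34 ± 0.084. So CxH and MH were low, and CxWT and MWT high, in these 3 genes.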

How the data were processed

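RNA was sequenced on a SOLiD 3 Plus instrument from 4 pooled samples. According to the study's methods the authors aligned the reads to mm9 with PASS, allowing at most 2 mismatches, and required that reads span more than 50% of a gene. The deposited values are counts, whole reads per gene without normalization, which the authors took from reads aligned to a single gene. The annotation used for counting is not given in the sources used here.

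Entrez identifiers were matched to RefSeq symbols for 12690 of 12700 genes, and GC content and length came from the longest protein-coding transcript of GENCODE vM1 on the same build, for 12221 genes. RPM are counts scaled to each library's aligned reads. A count of 0 was set to 1 for ratios. Each pair of libraries was compared over all genes by a Poisson likelihood ratio test, and the threshold of 0.7 on the log2 ratio and of 0.05 on the p-value follow the study. Intervals and standard errors cover counting error only, since variation between pools could not be estimated. The correction was quadratic in GC content and log2 length. Calls after it set the corrected ratio against the threshold but kept the p-value of the uncorrected counts. Alternatives were column totals, TMM factors from edgeR and DESeq2 size factors, at least 100 reads in both libraries, a log2 ratio of at least 1, Benjamini-Hochberg adjustment, edgeR's exact test at a set biological coefficient of variation (0.2), and 0.5 added to every count.

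The members, their roles and the other gene lists were chosen with earlier results of these data known. All members in the table are reported, with levels in all libraries for those called in Cx or M. Of other postsynaptic genes the 3 highest and 3 lowest called ones with at least 100 reads in either library are named. Nlgn1, Nlgn2, Gphn, Shisa9 and Iqsec1 are given with their levels although not called, chosen after their values were seen. Scripts were tested on simulated data. Tools were R 4.3.3 with DESeq2 1.42.0 and edgeR 4.0.16, and Python 3.11.15 with matplotlib 3.10.9, scipy 1.17.1, pandas 2.3.3 and numpy 2.4.6.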

Additional observations from a re-analysis of the deposited data

Results flagged for a closer look

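Signs of the log2 ratio differed between Cx and M for 3 of the 34 genes, each with 1 library per condition, and none of these differences was tested. Nlgn1 was -0.23 in CxH vs. CxWT and 0.28 in MH vs. MWT. Nrxn3 was 0.14 and -0.18, and Iqsec1 was -0.082 and 0.12. None of the 3 was called in either area. With the correction for GC content and length the signs were alike for Nlgn1 (0.14 and 0.64) and Iqsec1 (-0.28 and -0.33), and remained opposite for Nrxn3 (0.20 and -0.23).

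Signs of the Cx over M ratio agreed between the genotype labels for 24 of the 34 genes. Of those that differed, again untested, 4 had 95% counting intervals that left out 0 for both ratios. The 6 with an interval that held 0 were Dlg1, Shank2, Homer1, Homer2, Nlgn1 and Kalrn, of which Shank2 was called between CxWT and MWT (0.87, against -0.032 between CxH and MH). Between CxH and MH the ratio of Dlg3 was 0.074, and between CxWT and MWT it was -0.094. In the same order Nrxn3 was 0.076 and -0.25. Cacng3 was 0.31 and -0.19. Cacng8 was -0.33 and 1.52, and the second ratio rests on 87 reads in MWT.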

How the results depend on the processing

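No paired analysis was possible because each condition is 1 library, and no replicate could be left out for the same reason. Across the alternatives the number of genes called up-regulated ran from 15 to 20 of 34 in Cx and from 16 to 20 in M. For MH vs. CxWT it ran from 11, at a log2 ratio of at least 1, to 18 with TMM or DESeq2 factors. With TMM factors, DESeq2 size factors and the GC and length correction, the median log2 ratio of the 34 genes in CxH vs. CxWT was 0.83, 0.82 and 0.67. In MH vs. MWT it was 0.95 with column totals, 1.07 with TMM and with DESeq2, and 0.65 with the correction. In CxH vs. MH it was 0.090 with column totals and 0.19 with the correction. In CxWT vs. MWT it was 0.20 with column totals, 0.24 with TMM and with DESeq2, and -0.0088 with the correction. The number up-regulated in CxWT vs. MWT was 2 at a log2 ratio of at least 1 and 3 with the correction, which also called 1 gene down-regulated, Shisa9, in Cx and 1 in M. The correction turned the sign of called ratios for Shank3 in CxWT vs. MWT (-0.054) and for Nlgn2 (-0.19) and Nrxn2 (-0.083) in CxH vs. MWT. Of uncalled ratios it turned those of Nlgn1, Nlgn2 and Cacng2 in Cx and of Nlgn2, Nrxn2 and Iqsec1 in M, and TMM and DESeq2 turned that of Iqsec1 in Cx. Called or not, the correction turned the sign of 17 of 34 in CxWT vs. MWT, 6 in CxH vs. MH, 2 in MH vs. CxWT and 4 for CxH over MWT.

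Over all genes a log2 ratio of at least 1 left 691 up-regulated and 710 down-regulated genes for Cx (1201 and 1457 at 0.7), and 869 and 773 for M (1556 and 1614). For CxH vs. MH (309 and 135) the numbers were 109 and 34 at that threshold, 157 and 68 with at least 100 reads, 151 and 40 by the exact test at a variation of 0.2, and 182 and 105 after the correction. For CxWT vs. MWT (690 and 268) they were 194 and 101, 508 and 137, 359 and 128, and 237 and 151. For CxH vs. MWT (1980 and 1915) they were 1107 and 854 at a log2 ratio of 1, 1477 and 1274 by the exact test and 1010 and 877 after the correction, and for MH vs. CxWT (814 and 1129) 497 and 567 at a log2 ratio of 1. The share of up-regulated genes among all calls moved with TMM from 45.2% to 56.0% in CxH vs. CxWT and from 41.9% to 54.2% in MH vs. CxWT. With column totals it moved from 69.6% to 58.4% in CxH vs. MH, from 72.0% to 55.2% for CxWT vs. MWT and from 50.8% to 39.1% in CxH vs. MWT. The postsynaptic genes called under those scalings were all up-regulated, except Shisa9, called down-regulated in CxH vs. MWT with column totals.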
